A study of Mus musculus with 10 samples.

Results

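The genes described here encode 10 proteins that bind spindle microtubules: Numa1, Dlgap5, Ckap5, Clasp1, Clasp2, Hmmr, Map4, Mapre1, Nusap1 and Tacc3. They were taken by name from a list of spindle microtubule-associated proteins, and every probe set that the platform annotation assigns to exactly 1 gene of that list was used, which gave 37 of the 34945 single-gene probe sets on the array. Of these, 27 passed the filter on dim probe sets, out of 23737 probe sets kept in all, and each of the 10 genes kept at least 1, among 12713 genes that did. The arrays were Affymetrix expression arrays, on which a gene is read by 1 or more sets of short probes, and the value of a gene below is the intensity, on a linear scale, of its brightest kept probe set.

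The RNA came from mature mouse eggs arrested in the second meiotic metaphase (MII). All donors were female B6D2F1 hybrids given eCG and, 48 h later, 5 IU of hCG, and eggs were collected 16 h after that and stripped of cumulus cells with hyaluronidase. The groups were the spindle-chromosome complex cut out by microsurgery (SCC, 3 arrays), the enucleated remainder of the egg (cytoplast, 4 arrays) and the intact egg (MII oocyte, 3 arrays). No group was genetically altered. The titles call the samples biological replicates but say neither how many eggs were pooled nor which animals they came from, so a p-value here covers the spread from sample to sample, part of which may be technical. Up to 50 ng of RNA from each sample went through 2 rounds of amplification and 10 µg of cRNA were hybridised, so values are relative amounts within a sample and not amounts per egg.

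The spindle of a mouse egg has no centrioles. Its microtubules are nucleated by many small organising centres and around the chromosomes, and they are gathered into poles, stabilised against the kinetochores and kept growing by proteins that bind the lattice or the growing plus ends. An egg at MII holds a store of maternal mRNA made during growth and largely lacks new transcription. The arrays thus compare the relative make-up of that store in the excised spindle and in the rest of the egg, and not how the amount of a transcript is divided between them. The question the design asks is which transcripts are relatively more abundant at the spindle.

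Of 11 measured oocyte markers, 11 lay above the background level on all 10 arrays, where background is the 95th percentile of genes of other tissues on the same array and ranged from 97.1 to 168 intensity units. Of 18 measured cumulus and granulosa cell markers, 17 lay above it on no array, and their summed intensity was 544 to 656 in SCC, 557 to 570 in cytoplast and 536 to 588 in MII oocyte arrays. The exception was Kitl, the ligand of the Kit receptor, at 158 ± 41.1 in SCC (SD, n = 3) and 96.1 ± 26.1 in cytoplast arrays (SD, n = 4). The log2 ratio of the 3' to the 5' control probe sets of Actb, a measure of how far the labelled RNA was shortened, was 3.42 ± 0.20 in SCC and 4.62 ± 0.69 in cytoplast arrays (exact two-sided permutation test, p = 0.0571). The same ratio for Gapdh was 2.87 ± 0.48 in SCC and 3.17 ± 0.56 in cytoplast arrays. The Gapdh values of these groups overlapped (exact two-sided permutation test, p = 0.429). The part of RNA length in the differences below was not tested. Bright probe sets as a class also lay higher in SCC arrays: the median difference from the cytoplast was 0.28 on the log2 scale over the 3944 probe sets with a mean log2 intensity over 8, against 0.01 over all probe sets kept.

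At the gene level none of the 10 genes passed the limma test (adjusted p of 0.05, over 23737 probe sets) between the SCC and the cytoplast. Across the array 6.74% of probe sets were called higher in the SCC and 0.274% lower (1599 and 65, a split that became 505 and 121 with cyclic loess and 418 and 154 with quantile normalization). The median difference of the 10 genes was 0.13 on the log2 scale, with 7 genes above 0 and 3 below, although Dlgap5 and Ckap5 turned below 0 with either of those scalings and Mapre1 with the quantile one, and although 3 of the 7 (Ckap5, Clasp1 and Tacc3) were read under background. Before adjustment 2 of the 10, Numa1 and Mapre1, had p under 0.05, as did 3865 probe sets that were higher and 933 that were lower among all those tested. Mapre1 was the gene whose SCC arrays all lay above all cytoplast arrays, which was the case for 13.9% of all probe sets, while no gene had all its SCC arrays below all cytoplast arrays (5.89% of all probe sets). Among single probe sets, 2 of the 27 kept were called higher (7.41%) and none lower, and both were second probe sets, of Mapre1 and of Map4.

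**Figure D1:**
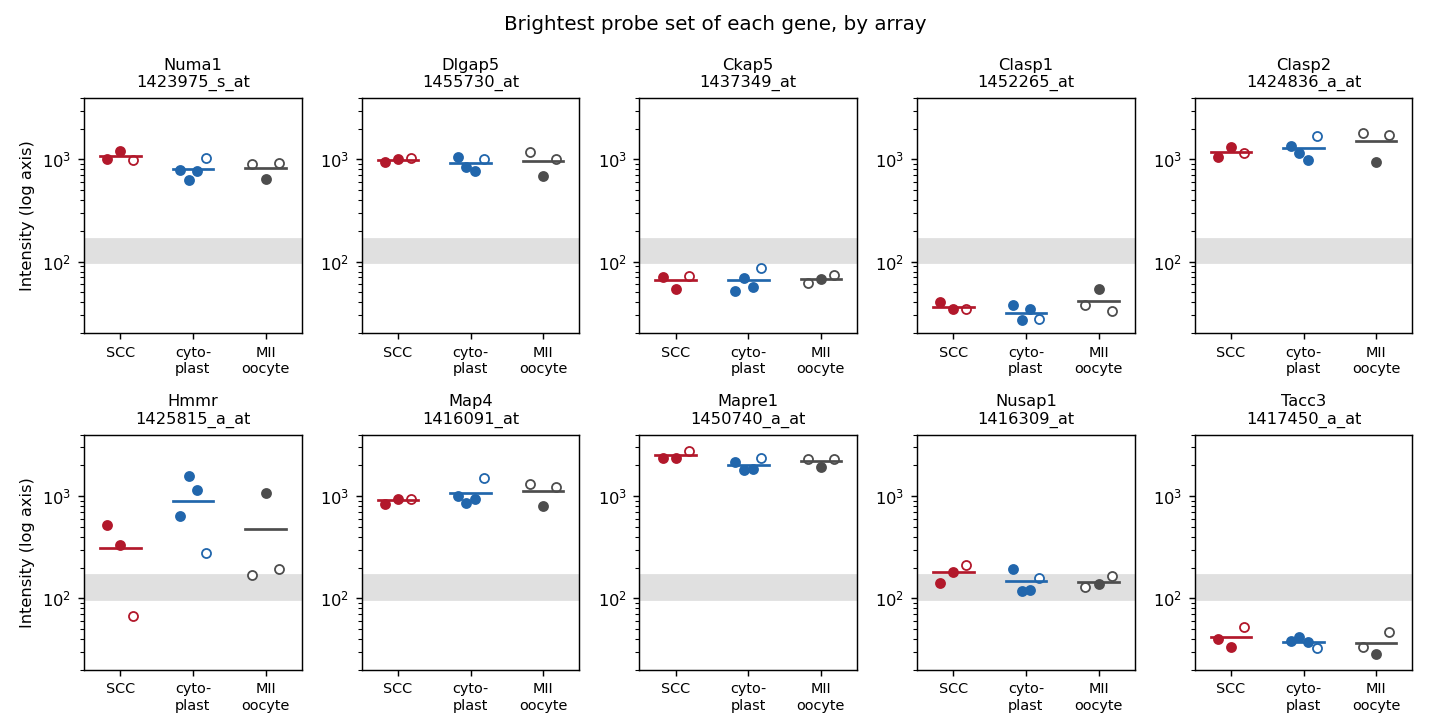
Intensity (log axis) of the brightest kept probe set of each of the 10 genes on each SCC, cytoplast and MII oocyte array; horizontal lines are group means, the grey band spans the background levels of the 10 arrays (97.1 to 168), and open points are the 4 arrays with brighter hybridisation controls. Ckap5, Clasp1 and Tacc3 lie under the band on every array, and Hmmr spreads over a far wider range than the other genes.

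The genes fell into levels that differed widely in signal, although intensities of different probe sets cannot be ranked against each other as amounts. Of the 27 kept probe sets, 8 lay above background on all 10 arrays and 18 on none. Numa1, Dlgap5, Clasp2, Map4, Mapre1 and Nusap1 each had at least 1 probe set above background on every array. Hmmr did so on 9 of the 10. Ckap5, Clasp1 and Tacc3 were not above background on any array, so their values are given below without a fold change, as are those of other probe sets under background. By mean log2 intensity their brightest probe sets stood at the 80.6th, 71.4th and 72.7th percentile of the array. Under background therefore does not mean at the floor of the array.

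Numa1 encodes NuMA, which gathers microtubule minus ends into the spindle poles and tethers dynein there. Its probe set 1423975_s_at read 1018, 1208 and 990.2 on the 3 SCC arrays. The cytoplast arrays read 782.5, 625.0, 771.6 and 1039, and the MII oocyte arrays 908.7, 636.9 and 924.1. The SCC arrays were the highest but for cytoplast 4, which lay between SCC 1 and SCC 2, and all of them were above the MII oocyte arrays. The difference from the cytoplast was 0.43 on the log2 scale (SE 0.18, 95% interval 0.03 to 0.84, 1.35-fold), with an adjusted p of 0.209 by limma. Against the intact egg it was 0.40 (SE 0.20, 95% interval -0.04 to 0.83, adjusted p = 0.461). The dimmer probe set 1423974_at was below background on all arrays and was not called (adjusted p = 0.865).

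Numa1 had the smallest p of the 10 genes in the SCC-to-cytoplast comparison. The 3 genes whose gene-level log2 values followed it most closely over the 10 arrays were Dab2ip, a Ras GTPase-activating protein (Pearson r = 0.980), Tmem107, a transmembrane protein of the ciliary transition zone (0.967), and Gpr180 (0.959), out of 12712 genes. These arrays share their groups and their overall brightness, and the values are descriptions. Dab2ip itself averaged 63.3 in SCC and 52.1 in cytoplast arrays, a level under background.

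Hmmr encodes RHAMM, a microtubule-binding protein that works at the spindle poles and brings Tpx2 there. Its probe set 1425815_a_at read 526.9, 333.1 and 67.5 on the SCC arrays and 635.7, 1562, 1140 and 276.0 on the cytoplast arrays. The MII oocyte arrays read 168.9, 1082 and 192.0. The lowest value, 67.5 on SCC 3, lay under that array's background level of 168. The highest array was 23.1 times the lowest, against 1.54 to 2.02 times for the brightest probe sets of the other 9 genes. The 2.02 is that of Clasp1, which was under background on every array. The groups overlapped, and the SCC mean of 309 ± 231 (SD, n = 3) stood against 904 ± 564 in the cytoplast (SD, n = 4) and 481 ± 520 in the MII oocyte (SD, n = 3). The difference from the cytoplast was -1.71 on the log2 scale (SE 0.81, 95% interval -3.49 to 0.07), with an adjusted p of 0.269. Without SCC 3 it was -0.84 (adjusted p = 0.731), and over the arrays left out in turn it reached -2.32. With the mean of the gene's kept probe sets, of which the second is under background, it was -0.63 (adjusted p = 0.418).

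The values of Hmmr moved with the level of the hybridisation controls, the control transcripts added to each sample just before it goes on the array. These controls split the arrays at their largest gap into 6 dimmer arrays (SCC 1 and 2, cytoplast 1 to 3 and MII oocyte 3) and 4 brighter ones (SCC 3, cytoplast 4 and MII oocyte 2 and 4), although cytoplast 1 lay almost midway. Hmmr read 333 to 1562 on the dimmer arrays and 67.5 to 276 on the brighter ones, with no overlap, although the 67.5 (SCC 3) lay under background. With the groups in the model it was 5.13-fold lower on the brighter arrays (log2 -2.36, adjusted p = 0.00704 by limma), which placed it 17th of 23737 probe sets in that direction. Of all probe sets, 5.91% were called higher and 1.14% lower on the brighter side, and of the other genes' brightest probe sets Map4 was called higher there, by 0.49 (adjusted p = 0.0393). No label says what set the controls' level, and its part in the Hmmr values was not tested further.

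**Figure D2:**
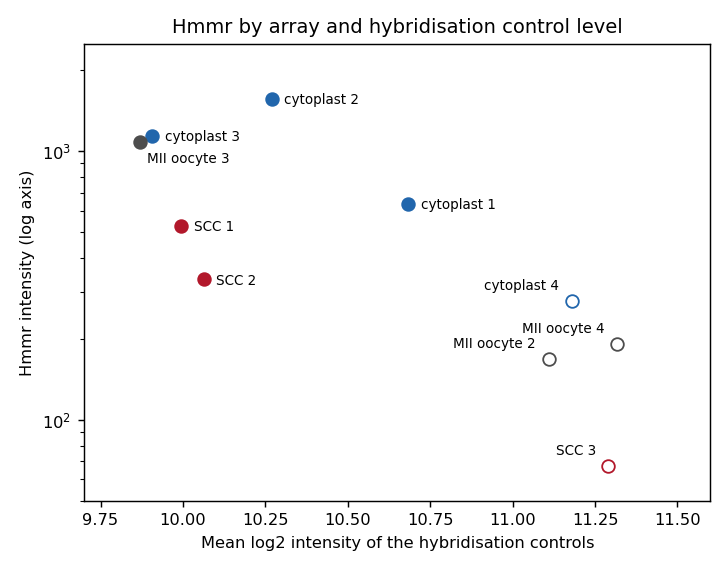
Intensity of the Hmmr probe set 1425815_a_at (log axis) against the mean log2 intensity of the hybridisation controls, 1 point per array, red for SCC, blue for cytoplast and grey for MII oocyte, open for the 4 brighter arrays. The 4 brighter arrays read 67.5 to 276 and the 6 dimmer ones 333 to 1562, and on each side the SCC arrays lie below the cytoplast arrays.

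Within the dimmer arrays the 2 SCC values of 526.9 and 333.1 lay under the 3 cytoplast values, and within the brighter arrays the SCC value of 67.5 lay under the cytoplast value of 276.0. With the control side as a block the difference of the SCC from the cytoplast was -1.52 (adjusted p = 0.00616), and with the control level as a covariate it was -1.83 (adjusted p = 0.00151). Within the dimmer side it was -1.32 (adjusted p = 0.0269). Within the brighter side it was -2.03, the difference of 1 array from 1 array, which has no replicate check. The SCC array there, SCC 3, lay under background. Moving cytoplast 1 to the brighter side, an alternative chosen after the data were seen, gave -2.08 (adjusted p = 0.00242). Hmmr was thus called with the covariate, with either block and within the dimmer side, and not in the fit without the controls. A second Hmmr probe set, 1450157_a_at, was below background on all arrays, at 11.3 to 15.8 in cytoplast and 17.0 to 21.2 in SCC arrays (adjusted p = 0.161). The remaining 3 Hmmr probe sets did not pass the filter, with group means of 6.77 to 14.3.

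Dlgap5 encodes HURP, which bundles and stabilises kinetochore fibres near the chromosomes. The SCC arrays of its probe set 1455730_at read 954.6, 1012 and 1030, and the cytoplast arrays 1053, 850.5, 769.0 and 1012. MII oocyte arrays read 1180, 683.1 and 1018. All 3 groups overlapped, with the SCC arrays close together in the middle. The difference from the cytoplast was 0.13 (SE 0.18, 95% interval -0.27 to 0.52, adjusted p = 0.771), and it turned to -0.14 under cyclic loess and -0.17 under quantile normalization. The interval covers both a small fall and a rise of up to 0.52 on the log2 scale.

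Nusap1, a microtubule-bundling protein that links microtubules to chromatin, gave intensities close to background. Its probe set 1416309_at read 141.0, 182.8 and 213.2 on the SCC arrays, 194.3, 118.2, 121.5 and 158.2 on the cytoplast arrays and 129.1, 137.5 and 166.3 on the MII oocyte arrays. The groups overlapped, and the difference of the SCC from the cytoplast was 0.28 (SE 0.20, 95% interval -0.15 to 0.72, adjusted p = 0.483). The second probe set, 1416310_at, lay below background on every array. It read 15.3 to 19.4 on the SCC arrays and 19.0 to 33.7 on the cytoplast arrays (adjusted p = 0.266).

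Mapre1 encodes EB1, the protein that marks growing microtubule plus ends and recruits most other plus-end proteins to them. Its brightest probe set, 1450740_a_at, read 2375, 2388 and 2771 on the SCC arrays. The cytoplast arrays read 2148, 1799, 1827 and 2371 and the MII oocyte arrays 2298, 1935 and 2322. Every SCC array lay above every array of the other groups, although SCC 1 exceeded cytoplast 4 by little. The difference from the cytoplast was 0.31 (SE 0.13, 95% interval 0.02 to 0.60, adjusted p = 0.219), and after quantile normalization it was -0.01.

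The second Mapre1 probe set, 1422764_at, showed the larger shift. It read 783.6, 981.6 and 985.9 on the SCC arrays and 502.5, 558.3, 624.6 and 521.4 on the cytoplast arrays. The MII oocyte arrays read 578.7, 751.3 and 654.2, of which the lowest lay within the cytoplast range. All SCC arrays were above all others, and the probe set was called higher in SCC than in cytoplast arrays by 0.73 on the log2 scale (SE 0.14, 95% interval 0.43 to 1.03, 1.66-fold, adjusted p = 0.0120). The call was lost after cyclic loess (0.48, adjusted p = 0.128) and quantile normalization (0.41, adjusted p = 0.199), and without SCC 2 (adjusted p = 0.0713) or SCC 3 (adjusted p = 0.0697). It held in the fits with the hybridisation controls, where adjusted p was 0.00527 with their level as a covariate and 0.00640 with their side as a block. Against the intact egg the same probe set differed by 0.47 (SE 0.15, 95% interval 0.15 to 0.79, adjusted p = 0.211). The 2 further Mapre1 probe sets kept, 1428819_at and 1422765_at, were below background on all arrays and not called (adjusted p of 0.276 and 0.903).

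Ckap5 encodes the microtubule polymerase chTOG, which adds tubulin at plus ends. The array read it dimly, at 71.4, 53.8 and 71.8 on the SCC arrays, 51.0, 69.4, 57.0 and 86.0 on the cytoplast arrays and 61.7, 68.0 and 74.0 on the MII oocyte arrays for probe set 1437349_at. These values are under background and overlap throughout (SCC against cytoplast, adjusted p = 0.983). The probe set 1442271_at was dimmer, at 18.7 to 32.7 over all arrays.

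Clasp1 and Clasp2 are paralogs that hold plus ends on kinetochores and rescue shrinking microtubules. Clasp2 was bright: probe set 1424836_a_at read 1059, 1310 and 1161 on the SCC arrays, 1342, 1153, 978.5 and 1697 on the cytoplast arrays and 1820, 952.0 and 1754 on the MII oocyte arrays. The groups overlapped, and the difference of the SCC was -0.11 from the cytoplast (SE 0.24, 95% interval -0.63 to 0.41, adjusted p = 0.858) and -0.31 from the MII oocyte (SE 0.25, adjusted p = 0.711). The highest readings were on cytoplast 4 and MII oocyte 2 and 4, which are brighter-control arrays. The remaining brighter-control array, SCC 3, read 1161, below SCC 2 (1310) and cytoplast 1 (1342) of the dimmer side. The log2 difference of the brighter from the dimmer side was 0.49 (adjusted p = 0.0851). Clasp1 was below background on every array, at 34.2 to 40.0 in SCC, 26.9 to 37.5 in cytoplast and 33.0 to 54.5 in MII oocyte arrays for its brightest probe set 1452265_at (SCC against cytoplast, adjusted p = 0.601).

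Tacc3 encodes the protein that, with clathrin and chTOG, bridges microtubules of the kinetochore fibre. Its 3 kept probe sets were below background on every array. The brightest, 1417450_a_at, read 40.2, 33.5 and 52.1 on the SCC arrays and 32.7 to 41.9 on the cytoplast arrays, with overlap and an adjusted p of 0.760. A signal under background does not show that the transcript is absent from eggs, since probe sets differ in how well they bind.

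Map4, a protein that coats and stabilises the microtubule lattice, was read differently by its probe sets. The brightest, 1416091_at, gave 843.4, 944.4 and 947.8 on the SCC arrays, 1009, 863.7, 939.9 and 1504 on the cytoplast arrays and 1329, 798.3 and 1239 on the MII oocyte arrays. Those groups overlapped, with a difference from the cytoplast of -0.21 (SE 0.21, 95% interval -0.67 to 0.25, adjusted p = 0.659). The probe set 1416092_a_at gave 201.4, 262.2 and 206.4 on the SCC arrays against 132.8, 123.3, 163.6 and 139.2 on the cytoplast arrays, and 138.3, 236.6 and 162.6 on the MII oocyte arrays.

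Every SCC array of 1416092_a_at lay above every cytoplast array, and it was called higher by 0.67 (SE 0.18, 95% interval 0.27 to 1.07, 1.60-fold, adjusted p = 0.0483), just past the threshold. The call was lost under cyclic loess (0.50, adjusted p = 0.202), quantile normalization (0.45, adjusted p = 0.256) and without the filter (adjusted p = 0.0662). Leaving out cytoplast 1, 2 or 4, MII oocyte 4 or any SCC array also ended it, with adjusted p from 0.0590 to 0.215. So did the replicate block (adjusted p = 0.0652) and log2(value + 16) (0.0572). The call held with the hybridisation control level as a covariate (adjusted p = 0.0154) and with the control side as a block (0.0179). Another Map4 probe set, 1437855_at, read 51.0 to 98.7 on the SCC and 26.7 to 57.5 on the cytoplast arrays, all below background (adjusted p = 0.0576). That probe set was called higher with the covariate (adjusted p = 0.0105), with the block (0.0110) and with a filter at the 75th percentile (0.0401). The other 2 Map4 probe sets kept were also below background and not called.

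**Figure D3:**
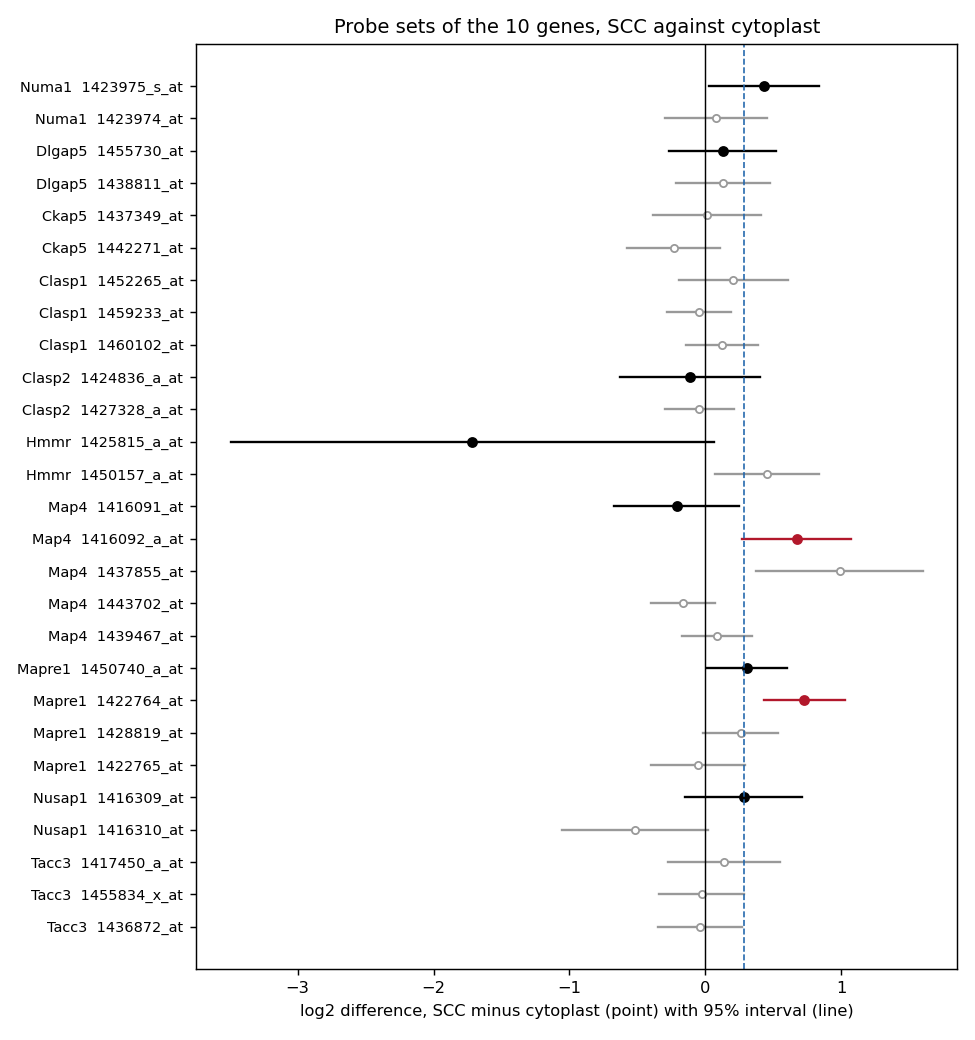
Difference of the SCC from the cytoplast on the log2 scale for the 27 kept probe sets of the 10 genes, with 95% intervals; filled points were above background on at least 1 SCC or cytoplast array, red ones passed the limma test, and the dashed blue line is the median of bright probe sets (0.28). The 2 called probe sets, of Map4 (0.67) and Mapre1 (0.73), each belong to a gene whose brightest probe set was not called.

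Because the probe sets of Map4 and of Mapre1 disagreed, the ratio of the second to the brightest probe set was taken within each array. This measure cancels only a brightness that both probe sets share, and it was chosen after the values were seen. With the groups in the model, Map4 1416091_at was called higher on the brighter-control side (log2 0.49), while 1416092_a_at was not called (-0.26). The Map4 ratio therefore did not cancel the level of the controls, and in each group it was lowest on the brighter-control arrays. For Map4 the ratio was 23.9%, 27.8% and 21.8% on the SCC arrays and 13.2%, 14.3%, 17.4% and 9.26% on the cytoplast arrays, with no overlap. The MII oocyte arrays read 10.4%, 29.6% and 13.1% and covered both. The log2 ratio differed by 0.88 between SCC and cytoplast (exact two-sided permutation test, p = 0.0571, where 0.0286 is the smallest possible, and 0.343 after adjustment over 6 such tests). It was 0.98 with cyclic loess and 0.96 with quantile normalization. The same exact test gave its smallest possible p, 0.0286, for each, not adjusted over tests. Since the ratio was chosen after the values were seen, none of these p-values is an independent test of it.

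For Mapre1 the within-array ratio was 33.0%, 41.1% and 35.6% on the SCC arrays and 23.4%, 31.0%, 34.2% and 22.0% on the cytoplast arrays. The groups overlapped, and the log2 ratio differed by 0.42 (exact two-sided permutation test, p = 0.143, adjusted 0.429 over the 6 tests). In both genes the ratio was lower on the brighter-control cytoplast array than on any other cytoplast array. Map4 and Mapre1 are the genes with a second probe set above background on every array. The ratios were taken after these probe sets were seen to disagree. They restate that disagreement as a description, and neither passed after adjustment. The positions of the probes on the transcripts were not used here.

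**Figure D4:**
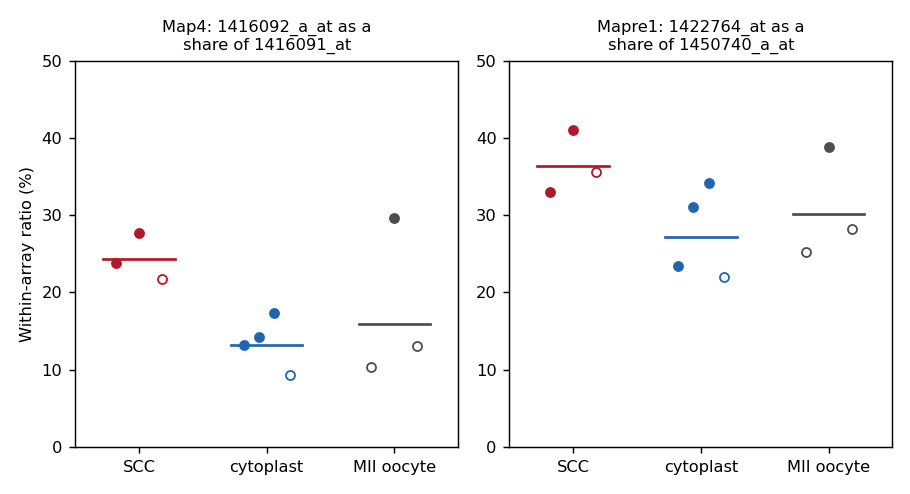
Second probe set as a percentage of the brightest one within each array for Map4 (left) and Mapre1 (right); lines are geometric group means, and open points are the brighter-control arrays. For Map4 the SCC arrays (21.8% to 27.8%) lie above the cytoplast arrays (9.26% to 17.4%), and for Mapre1 the groups overlap.

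Against the intact egg none of the 10 genes was called at either level. Of all probe sets 0.0421% were called higher in the SCC than in the MII oocyte and 0% lower. The median difference of the 10 genes was 0.02, with 5 above 0 and 5 below, and none had an unadjusted p under 0.05 (2039 probe sets higher and 832 lower did so among all). Numa1 and Mapre1 had every SCC array above every MII oocyte array, which was true of 8.71% of all probe sets, and none of the 10 had the reverse (5.34%). Their differences were 0.40 and 0.20, with adjusted p of 0.461 and 0.648. For Hmmr the difference was -0.52 with an SE of 0.87, a spread that leaves the direction unmeasured.

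The cytoplast and the intact egg did not differ in any of the 10 genes by the test, and 0% of all probe sets were called in either direction. The largest was that of Hmmr, at 1.19 (SE 0.81), the median was -0.05 and adjusted p was at least 0.926. None had an unadjusted p under 0.05, against 276 higher and 778 lower probe sets among all. No gene had non-overlapping arrays, which occurred in 1.89% of all probe sets in the higher and 3.83% in the lower direction. The SCC-to-cytoplast and SCC-to-oocyte comparisons share the SCC arrays, so their values are set side by side and are not independent.

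Among 30 binding partners and regulators of these proteins, 28 were kept. Of these, 4 were called higher in SCC than in cytoplast arrays and none lower. The shares over all probe sets were 6.74% and 0.274%, but those take in dim probe sets, while each gene is read by its brightest. With a stricter filter, above the 75th percentile instead of the median, 1723 of 11970 probe sets were called higher and 67 lower. The median difference of the 28 was 0.25, against 0.28 over bright probe sets. The SCC arrays lay wholly above the cytoplast arrays in 11 and wholly below in 1, against 13.9% and 5.89% of all probe sets, dim ones included. Cenpe, the kinetochore motor that Clasp proteins accompany, averaged 5092 ± 905 in SCC (SD, n = 3) and 2642 ± 184 in cytoplast arrays (SD, n = 4), a log2 difference of 0.93 (adjusted p = 0.00554). Slain2, which joins EB1 to chTOG at plus ends, averaged 1964 ± 322 and 1024 ± 110 (0.93, adjusted p = 0.00568). It lost its call under cyclic loess (0.65, adjusted p = 0.0545) and quantile normalization (0.62, adjusted p = 0.0751).

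Kpna2, the importin alpha that holds spindle assembly factors such as Tpx2 inactive until Ran-GTP releases them, averaged 810 ± 200 in SCC and 339 ± 36.5 in cytoplast arrays (log2 difference 1.23, adjusted p = 0.0133), and lost its call under quantile normalization (adjusted p = 0.0540) and without SCC 2 (0.0757) or SCC 3 (0.0824). Clip1, a plus-end protein that binds EB1, averaged 624 ± 42.0 and 438 ± 37.7 (0.51, adjusted p = 0.0390). Under cyclic loess 2 of the 28 were called and under quantile normalization 1, while 2 were called without SCC 2 or without SCC 3 and 7 without SCC 1. Cenpe kept its call under each of these settings. Clip1 lost it under both scalings and without any one SCC or cytoplast array, with adjusted p from 0.0626 to 0.173 in the latter. With the mean of its kept probe sets Clip1 differed by only 0.13 (adjusted p = 0.569). Its call was also lost with the replicate block (adjusted p = 0.0837) and within the dimmer side of the hybridisation controls (0.0763). Tpx2 itself, which Hmmr brings to the poles, was not called (-0.11, adjusted p = 0.907), nor was Gpsm2, the cortical and polar partner of NuMA (0.75, adjusted p = 0.0619). Against the MII oocyte none of the 28 was called.

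Of 39 other microtubule-associated proteins and paralogs, 31 were kept. Of these, 4 were called higher in SCC than in cytoplast arrays and none lower. The shares over all probe sets, dim ones included, were 6.74% and 0.274%. With the filter at the 75th percentile, 1723 of 11970 probe sets were called higher and 67 lower. The median difference was 0.05, and the SCC arrays lay wholly above the cytoplast arrays in 6 and wholly below in 4, against 13.9% and 5.89% of all probe sets. Map7, a recruiter of kinesin-1 to microtubules, averaged 492 ± 44.1 in SCC and 283 ± 14.1 in cytoplast arrays (log2 difference 0.80, adjusted p = 0.00552), and lost its call with the mean of its kept probe sets (0.52, adjusted p = 0.153). Ckap2, a stabiliser of spindle microtubules, averaged 1170 ± 210 and 705 ± 53.9 (0.72, adjusted p = 0.0188), and lost its call under both scalings (adjusted p of 0.0639 and 0.0834) and without cytoplast 2, SCC 2 or SCC 3 (0.0620 to 0.105). Prc1, which bundles antiparallel microtubules of the midzone, averaged 7004 ± 868 and 4457 ± 931 (0.67, adjusted p = 0.0316), and lost its call under cyclic loess (adjusted p = 0.110) and without cytoplast 1, 2 or 3, SCC 2 or SCC 3 (0.0669 to 0.152). Map9 was called as well (adjusted p = 0.0235) but was below background on all arrays, at 60.0 ± 7.57 and 35.3 ± 1.29. Its call was lost with the mean of its kept probe sets (0.23, adjusted p = 0.2835) and without cytoplast 1 or 2, SCC 2 or SCC 3 (0.0590 to 0.125).

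The paralogs of the 10 genes did not pass the test. Mapre2 averaged 7951 ± 487 in SCC and 8835 ± 1296 in cytoplast arrays (log2 difference -0.14, adjusted p = 0.716). Tacc2 averaged 2526 ± 461 and 1806 ± 493 (0.51, adjusted p = 0.243), Tacc1 differed by -0.09 (adjusted p = 0.854), and Mapre3, Dlgap1 and Dlgap4 were below background on all SCC and cytoplast arrays. Under cyclic loess 2 of the 31 genes were called, as were 2 without cytoplast 1 and 1 without cytoplast 2, SCC 2 or SCC 3. Against the MII oocyte none of the 31 was called.

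**Figure D5:**
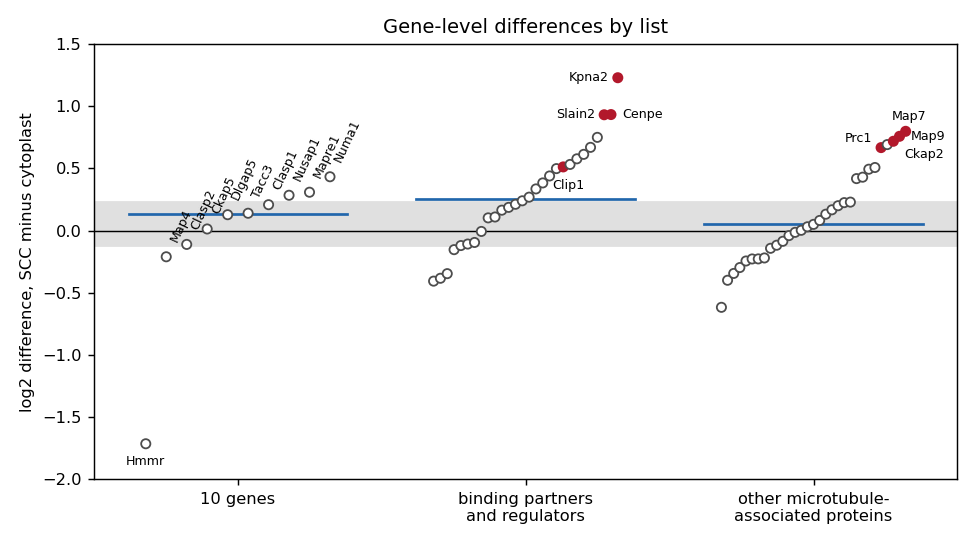
Gene-level difference of the SCC from the cytoplast on the log2 scale for the 10 genes, 28 binding partners and regulators, and 31 other microtubule-associated proteins; blue lines are medians (0.13, 0.25 and 0.05), red points passed the limma test, and the grey band is the interquartile range of all probe sets kept. The 8 called genes lie in the latter groups, and the 10 genes hold none.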

How the data were processed

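The deposited values are intensity on a linear scale, 1 column per array. They were made by the authors with RMA, per the submitters' processing notes, which name no version. The deposited arrays did not share 1 distribution of values. Their 95th percentile ran from 525.8 (cytoplast 2) to 797.1 (SCC 3), at 719 ± 88.2 in SCC (SD, n = 3) and 580 ± 46.1 in cytoplast arrays (SD, n = 4). The main fit applied no further scaling. Since log2 values had been planned for, log2 was computed before any test. The 64 control probe sets were left out, and no gene was named from the 932 probe sets that list several genes or the 9160 that list none. A probe set was kept if at least 3 arrays read it above their own median. The SCC, cytoplast and MII oocyte arrays entered 1 fit with a mean for each group (limma 3.58.1, R 4.3.3), and p-values were adjusted by Benjamini-Hochberg over the 23737 kept probe sets, with a threshold of 0.05. A gene's value is that of its brightest kept probe set. Depth has no meaning for arrays, whose number limits the precision.

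The 10 genes and both lists were chosen with earlier results of these data known. Named from the lists were genes past the threshold against the cytoplast (at most 6 per list, smallest p first), and genes most like Numa1 by Pearson correlation. Other genes of the lists, the paralogs and Tpx2 and Gpsm2 among them, and the pairs of probe sets compared as ratios were picked after their values were seen. The background level used 33 genes of other tissues. Of these, 29 lay above it on no array, while Ms4a1, at a mean of 1017, lay above it on all 10. Alternatives covered scaling, filter, gene summary, offset, arrays in the fit, replicate block, hybridisation controls and each array left out. Sequences and positions of probes were not used here.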

Additional observations from a re-analysis of the deposited data

How the results depend on the processing

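The count of the 10 genes called between SCC and cytoplast, 0 as reported, was 1 with the hybridisation control level as a covariate, 1 with the control side as a block, 1 within the brighter side (Hmmr, from 1 array against 1 array, which cannot support a call between the groups), 2 within the dimmer side (Hmmr and Numa1, the latter at 0.62, adjusted p = 0.0289) and 2 with cytoplast 1 moved to the brighter side (Hmmr and Mapre1, the latter at 0.35, adjusted p = 0.0367). Under the other settings, and leaving out any 1 array, it stayed at 0, as did the counts for both comparisons with the MII oocyte under every setting run. The count of called probe sets of these genes, 2 as reported and both higher in the SCC, was 0 after cyclic loess and 0 after quantile normalization. It was 1 without the filter, 1 with log2(value + 16), 4 with the covariate, 4 with the block, 5 within the dimmer side, 5 with cytoplast 1 moved, and 0 to 3 leaving out 1 array at a time. In the fits with the covariate, with either block and within the dimmer side, the counts of genes and of probe sets include Hmmr, called lower. Its differences there were -1.83 (covariate), -1.52 (block), -1.32 (dimmer side) and -2.08 (cytoplast 1 moved). With the filter at the 75th percentile, Map4 1437855_at, under background, was called higher as well (0.99, adjusted p = 0.0401 by limma).

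Genes called higher among the binding partners and regulators, 4 as reported, numbered 2 after cyclic loess, 1 after quantile normalization, 10 with the covariate, 9 with the block, 8 with cytoplast 1 moved and 2 to 7 leaving out 1 array at a time. Among the other microtubule-associated proteins, 4 as reported, they numbered 2 after cyclic loess, 2 with the mean of kept probe sets, 7 with cytoplast 1 moved and 1 to 5 leaving out 1 array at a time. The cause of these shifts was not tested. Over all probe sets, 505 were called higher and 121 lower after cyclic loess and 418 and 154 after quantile normalization, against 1599 and 65 as deposited.

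The replicate numbers of the titles were not shown to pair the samples: over 8 pairs with the same number, deviations from the group means correlated from -0.304 to 0.614 (mean 0.0214). With the replicate block 0 of the 10 genes were called in each comparison, and 1 probe set, Mapre1 1422764_at (0.73, adjusted p = 0.0120), instead of 2.

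The differences below changed sign, and none of them was called as reported or under the setting named. Those of Ckap5, Clasp1 and Tacc3 are differences between signals under background and show no direction. After cyclic loess, SCC minus cytoplast was -0.14 for Dlgap5 and -0.031 for Ckap5, and SCC minus MII oocyte was -0.013 for Dlgap5, and cytoplast minus MII oocyte was 0.12 for Numa1, 0.12 for Dlgap5, 0.10 for Map4 and 0.0698 for Mapre1. After quantile normalization, SCC minus cytoplast was -0.17 for Dlgap5, -0.067 for Ckap5 and -0.011 for Mapre1, and SCC minus MII oocyte was -0.021 for Dlgap5, and cytoplast minus MII oocyte was 0.15 for Numa1, 0.15 for Dlgap5, 0.12 for Map4 and 0.061 for Mapre1. With the mean of a gene's kept probe sets, SCC minus cytoplast was -0.11 for Ckap5, 0.28 for Map4 and -0.12 for Nusap1, and SCC minus MII oocyte was 0.057 for Map4 and -0.19 for Nusap1, and cytoplast minus MII oocyte was -0.074 for Nusap1. With the replicate block, SCC minus cytoplast was 0.011 for Clasp2, and SCC minus MII oocyte was 0.093 for Ckap5. With the control level as a covariate, cytoplast minus MII oocyte was 0.0199 for Numa1, 0.042 for Dlgap5 and 0.039 for Map4. With the control side as a block, SCC minus cytoplast was -0.009 for Ckap5, and SCC minus MII oocyte was 0.031 for Ckap5, and cytoplast minus MII oocyte was 0.0899 for Numa1, 0.094 for Dlgap5, 0.0403 for Ckap5, 0.0087 for Clasp2, 0.15 for Map4 and 0.0026 for Mapre1. Within the dimmer side, SCC minus cytoplast was 0.037 for Clasp2 and -0.095 for Tacc3, and SCC minus MII oocyte was 0.31 for Clasp2 and 0.16 for Map4, and cytoplast minus MII oocyte was 0.18 for Numa1, 0.37 for Dlgap5, 0.27 for Clasp2, -0.053 for Hmmr and 0.23 for Map4. Within the brighter side, SCC minus cytoplast was -0.069 for Numa1 and -0.26 for Ckap5, and SCC minus MII oocyte was -0.0901 for Dlgap5 and 0.088 for Ckap5, and cytoplast minus MII oocyte was 0.18 for Numa1, 0.35 for Ckap5, 0.23 for Map4, 0.037 for Mapre1 and -0.27 for Tacc3. With cytoplast 1 moved, cytoplast minus MII oocyte was 0.0073 for Numa1, 0.026 for Dlgap5 and 0.013 for Map4. Leaving out 1 array at a time, SCC minus cytoplast ran from -0.10 to 0.15 for Ckap5, -0.23 to 0.0299 for Clasp2 and -0.0299 to 0.29 for Tacc3. Likewise, SCC minus MII oocyte ran from -0.13 to 0.26 for Dlgap5, -0.13 to 0.081 for Ckap5, -0.32 to 0.038 for Clasp1 and -1.13 to 0.36 for Hmmr. Likewise, cytoplast minus MII oocyte ran from -0.21 to 0.077 for Numa1, -0.26 to 0.13 for Dlgap5, -0.21 to 0.043 for Ckap5, -0.28 to 0.083 for Map4, -0.13 to 0.12 for Nusap1 and -0.075 to 0.28 for Tacc3.

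Dim signal limits Ckap5, Clasp1 and Tacc3, which lay under background on every array. For the rest the few arrays limit precision, and calls of genes or probe sets also moved with the scaling and the hybridisation controls. Which of these mattered most was not tested. Leaving out 1 SCC array leaves 2.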
